A study of Mus musculus with 8 samples.

Results

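Zfp281 heterozygous ESC lines were compared with wild-type lines. The members are the 5 arrays whose labels give these genotypes, 2 heterozygous (lines 5 and 3.1) and 3 wild-type (lines 3, 3.2 and 3.3), of 8 in the whole series, and the other 3 are the null lines 7, 3.34 and 3.38. In the targeted allele both exons of Zfp281, which hold all of its coding sequence, are replaced by a floxed neomycin resistance cassette, and the allele was used with and without this cassette. Heterozygous lines carry it on 1 chromosome, wild-type lines on none. CJ7 ESCs were targeted, injected into C57BL/6 blastocysts to obtain heterozygous mice, and new ESC lines were grown out from blastocysts of matings between such mice. All lines were kept with serum, LIF and mouse embryonic fibroblast feeders, untreated, and total RNA of each line was hybridised to 1 Affymetrix mouse genome array. A replicate is therefore a separate ESC line, the spread within a genotype holds the differences between lines as well as technical error, and the small number of arrays limits the precision. With 2 heterozygous lines, the values of line 5 and line 3.1 are given separately throughout.

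Zfp281 is a zinc finger transcription factor that binds GC-rich promoters and is a protein partner of Nanog, Oct4 and Sox2, the factors at the centre of the network that keeps ESCs pluripotent. ESC lines differ from each other in their balance of naive and primed pluripotency genes, in the cells that differentiate spontaneously within a culture, and in sex chromosomes. A heterozygous line is the case in which only the dose of such a factor is reduced.

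The arrays of the 2 genotypes were of similar quality. Probe sets with a present call made up 33.1%, 30.4% and 33.2% of the total in wild-type lines 3, 3.2 and 3.3 and 32.3% and 28.4% in heterozygous lines 5 and 3.1 (exact permutation test, two-sided p = 0.4). For the Gapdh and beta-actin controls, the mean log2 excess of the 3′ over the 5′ probe set, which grows as RNA gets shorter, was 4.86, 4.75 and 4.23 in wild-type and 4.49 and 4.80 in heterozygous lines (exact permutation test, two-sided p = 1). A comparison of 2 lines with 3 cannot pass 0.05 in this test. The null lines 7, 3.34 and 3.38 had a 3′ excess of 2.68, 3.71 and 3.51, below all 5 of these lines. Null values set beside heterozygous or wild-type ones below carry this difference in RNA quality as well as genotype.

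The 5 lines differed in Eif2s3y and in X-linked expression in a way that crossed the genotypes. Eif2s3y, a Y-linked gene for a translation initiation factor subunit, was at 6.02 and 5.67 in wild-type lines 3 and 3.2, 2.38 in wild-type line 3.3, 2.67 in heterozygous line 5 and 6.13 in heterozygous line 3.1, on the log2 scale on which all expression values are given. It was called present in lines 3, 3.2 and 3.1 and in no other line of the series, where all calls are those of the probe set kept for a gene. The 266 detected X-linked genes, where detected means called present in every line of at least 1 of the 2 genotypes, had a median difference from the wild-type mean of 0.32 in line 5 and −0.26 in line 3.1. Among wild-type lines it was −0.18 in line 3, −0.10 in line 3.2 and 0.30 in line 3.3. Xist, the RNA that coats the inactive X chromosome, was at 8.18, 7.99 and 9.83 in the wild-type lines, 9.15 in line 5 and 8.09 in line 3.1. Line 5 thus stood with wild-type line 3.3 and line 3.1 with wild-type lines 3 and 3.2. On the autosomes the medians stayed between −0.09 and 0.06 in these 5 lines, except for chromosome 11 in wild-type line 3, where 525 detected genes had a median of 0.12.

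**Figure D1:**
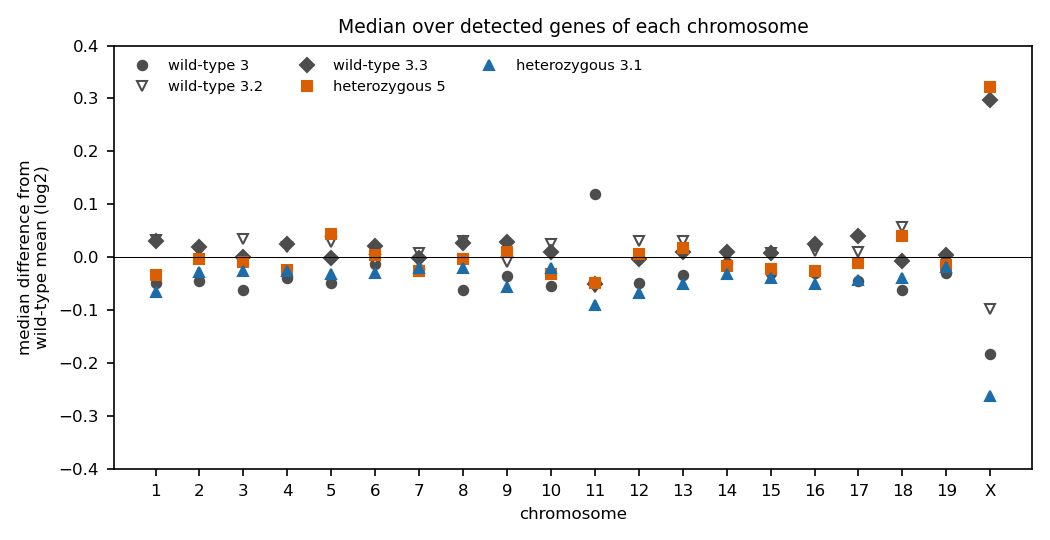
Median difference from the wild-type mean (vertical axis, log2) over the detected genes of each chromosome (horizontal axis) in the 3 wild-type and 2 heterozygous lines, 1 point for each line. On the X chromosome heterozygous line 5 (0.32) lies beside wild-type line 3.3 (0.30), and heterozygous line 3.1 (−0.26) lies below wild-type lines 3 (−0.18) and 3.2 (−0.10), while chromosome 11 stands out in wild-type line 3 (0.12).

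On 1 of its 2 probe sets, Zfp281 transcript was lower in both heterozygous lines than in any wild-type line. On that probe set the log2 value was 7.19, 8.36 and 7.58 in the wild-type lines 3, 3.2 and 3.3, 6.74 in line 5 and 6.74 in line 3.1, so that both heterozygous lines lay below all wild-type lines, and 3.39, 2.96 and 2.94 in the null lines 7, 3.34 and 3.38. The log2 fold change was −0.97 (standard error 0.30, unadjusted p = 0.0116, adjusted p = 0.989 over all probe sets from limma). The probe set that represents the gene is the one with the highest mean over all 8 arrays, null lines included. On it the values were 6.88, 7.93 and 6.72 in wild-type lines, 6.69 and 6.97 in lines 5 and 3.1, and 3.64, 5.06 and 5.23 in null lines. In each null line it was above the other probe set, whose wild-type mean was higher (7.71 against 7.18). On the representing probe set heterozygous and wild-type lines overlapped, and the log2 fold change of −0.35 (standard error 0.50) became 0.03 without wild-type line 3.2. The 50 measured genes nearest to Zfp281, 25 on each side, which may carry sequence of the targeted cells, had a median log2 fold change of 0.01. At an unadjusted p under 0.05, 1 was higher and 3 were lower (1.67% and 2.18% of all genes). The one above was Nr5a2, an orphan nuclear receptor of the pluripotency network and the second measured gene after Zfp281, at 5.49, 6.77 and 5.62 in wild-type lines, 6.95 in line 5 and 6.80 in line 3.1 (0.91, standard error 0.34). The lower ones were Platr22, Tnnt2 and Kif21b, of which only Platr22 was detected. Platr22, the first measured gene after Zfp281, differed from the wild-type mean by −0.68 in line 5 and −0.70 in line 3.1 (−0.69, standard error 0.28).

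No gene passed an adjusted p under 0.05 between heterozygous and wild-type ESCs in limma (0 of 18193 genes tested, 0%, smallest adjusted p = 0.209), and 701 genes had an unadjusted p under 0.05. Of these, 304 were higher (1.67%) and 397 lower (2.18%) in heterozygous lines. Every count of list members at an unadjusted p under 0.05 below is to be read beside these shares. At the 2-fold threshold that the study's methods give, 23 genes were higher (0.126% of genes) and 38 lower (0.209%). Both heterozygous lines lay above all wild-type lines in 1536 genes (8.44%) and below them in 1606 (8.83%). Of the 61 genes past 2-fold, 45 had no overlap between the genotypes, 15 higher and 30 lower, and 53 were detected. With the Eif2s3y call as a block, a setting chosen after seeing the data, 15 genes were higher and 48 lower past 2-fold and none passed the adjusted p (smallest 0.277 from limma, 909 at an unadjusted p under 0.05). Without the X-linked genes, 21 were higher and 35 lower.

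The heterozygous lines differed from each other more than either differed from its nearest wild-type line. Between lines 5 and 3.1, 519 genes were over 2-fold apart, 349 higher in line 5 (1.92%) and 170 lower (0.934%). Among wild-type lines the count was 306 for lines 3 and 3.2, 118 for lines 3 and 3.3 and 468 for lines 3.2 and 3.3. Line 3.1 was closest to wild-type line 3.2 (118 genes) and line 5 to wild-type line 3 (262 genes). Line 3.1 and wild-type line 3.2 also had the fewest present calls of the 8 arrays. In the fit with each heterozygous line as a group of its own, no gene passed an adjusted p under 0.05 between lines 5 and 3.1 in limma (smallest 0.218), and 1873 had an unadjusted p under 0.05.

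**Figure D2:**
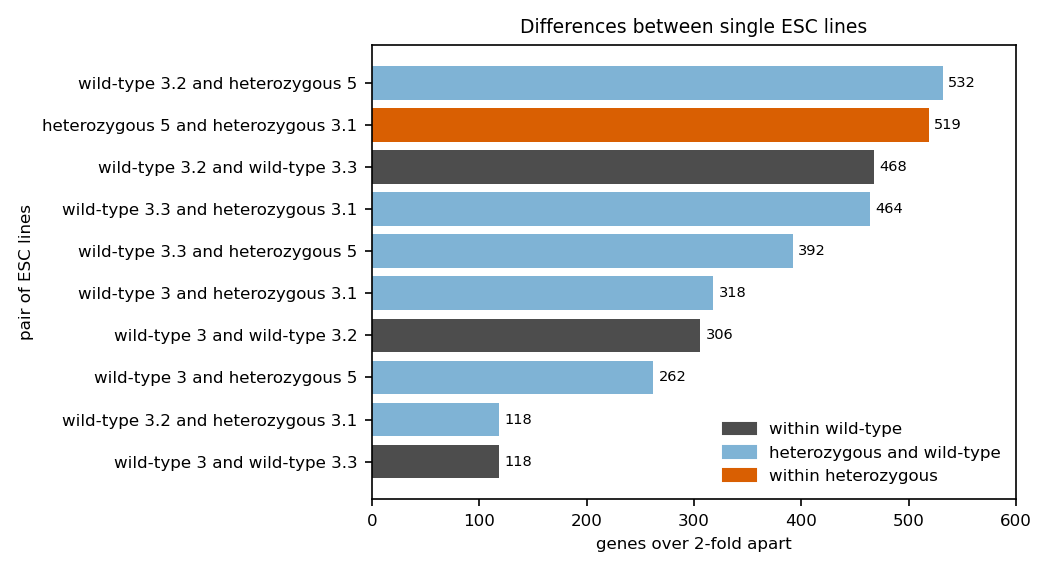
Number of genes over 2-fold apart (horizontal axis) in each pair of the 5 ESC lines (vertical axis), with the bars coloured by the genotypes of the pair. The pair of heterozygous lines (519 genes) ranks second after wild-type line 3.2 and heterozygous line 5 (532), and wild-type line 3.2 with heterozygous line 3.1 (118) is as close as the closest pair of wild-type lines.

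One by one against the wild-type mean, line 5 had 135 genes more than 2-fold higher (0.742%) and 99 lower (0.544%), and line 3.1 had 38 higher (0.209%) and 105 lower (0.577%). In limma no gene passed an adjusted p under 0.05 for line 5 (smallest 0.0715, 1199 at an unadjusted p under 0.05) or for line 3.1 (smallest 0.364, 1507 at an unadjusted p under 0.05). Both lines were past 2-fold in the same direction in 21 genes, 18 lower and 3 higher, and in opposite directions in 7. Both differences are taken from the same wild-type mean, so these counts describe the genes and are no test of their likeness. The 3 higher genes were Calml4, Pdgfc and Zbtb44, and the lower ones included Rragd, Car4, Gbp2, Gbp2b, Amot, Adgrl2, Pphln1, Sfmbt2, Pim2, Podxl and Fgf5.

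**Figure D3:**
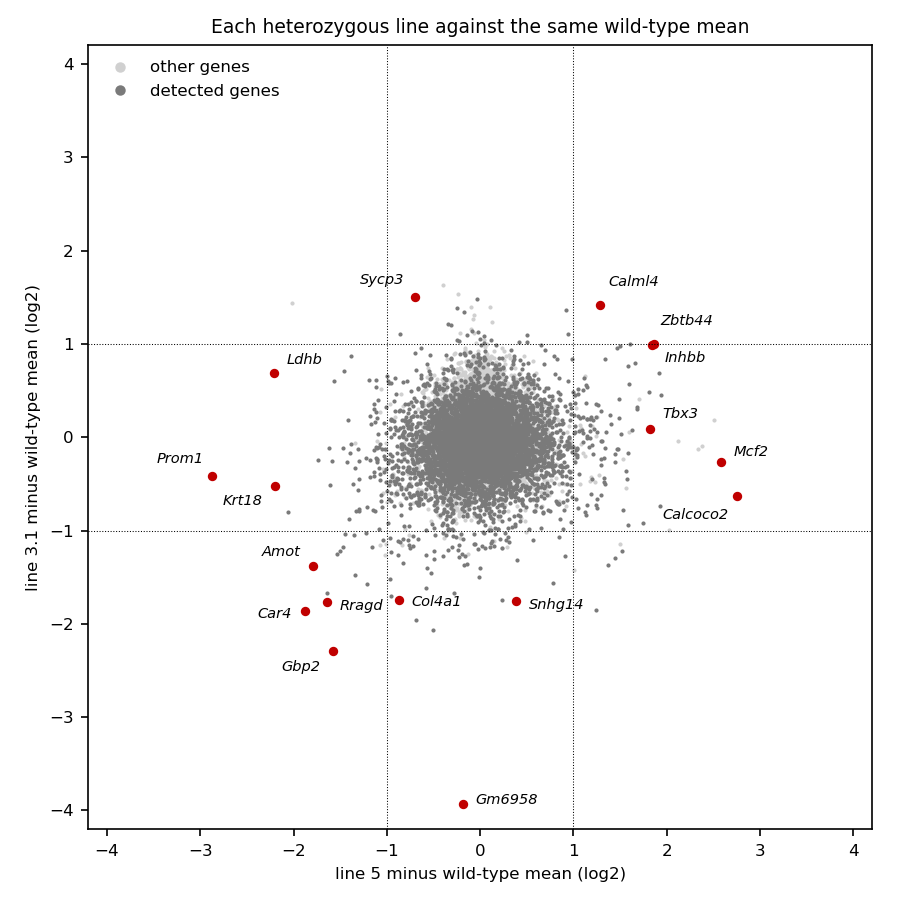
Difference from the wild-type mean (log2) in heterozygous line 5 (horizontal axis) and line 3.1 (vertical axis), 1 point for each of 18193 genes, with detected genes in dark grey, labelled genes in red and dotted lines at 2-fold. Both axes share the wild-type mean. Rragd, Car4, Gbp2 and Amot lie past 2-fold below in both lines, whereas Gm6958, Snhg14, Prom1, Ldhb, Mcf2 and Calcoco2 lie far from 0 in 1 line.

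Rragd had the smallest unadjusted p and was lower in both heterozygous lines by nearly the same amount. It encodes RagD, one of the Rag GTPases that bring mTORC1 to the lysosome when amino acids are present. Wild-type values were 6.21, 6.92 and 6.58 in lines 3, 3.2 and 3.3, 4.93 in line 5 and 4.81 in line 3.1. The log2 fold change was −1.70 (standard error 0.19, 3.25-fold lower, adjusted p = 0.209 from limma), and the gene was called present in all 5 lines. In null lines it was at 3.47, 3.48 and 3.44, below both heterozygous lines (null against heterozygous −1.40, adjusted p = 0.054 from limma). With any 1 line left out the log2 fold change of heterozygous lines stayed between −1.88 and −1.52, and the adjusted p lay between 0.0324, without wild-type line 3, and 0.763 (limma). Averaged with 2 other Rragd probe sets that lay between 2.68 and 3.65 in these 5 lines, it was −0.48. Of the other Rag GTPase and mTORC1 pathway genes, none was past 2-fold lower, and of 26 measured, Rragd included, 1 was higher and 1 lower at an unadjusted p under 0.05, with a median log2 fold change of 0.02 beside 0.01 for all genes. The one above was Depdc5, a subunit of the GATOR complex that restrains this pathway (0.33, standard error 0.13), whose probe set was called present in none of the 5 lines, while another was in 1 wild-type line. Mitf, a transcription factor of the lysosomal gene family, was past 2-fold higher through line 5 (6.55, a difference of 2.13 from the wild-type mean), with line 3.1 (4.39, −0.04) within the wild-type range.

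Car4, which encodes a membrane-anchored carbonic anhydrase, was at 5.50, 6.24 and 6.22 in wild-type lines, 4.11 in line 5 and 4.12 in line 3.1. Its log2 fold change was −1.87 (standard error 0.22, 3.67-fold lower, adjusted p = 0.209 from limma), or −1.88 in line 5 and −1.87 in line 3.1. It was called present in all 3 wild-type lines and in 1 of the 2 heterozygous lines. The null lines, at 3.95, 4.09 and 3.78, lay just below the heterozygous lines. A second Car4 probe set, called present in neither heterozygous line, was estimated as 2.71-fold lower (log2 fold change −1.44, standard error 0.36). Leaving out 1 line moved the log2 fold change between −2.12 and −1.75, and without wild-type line 3 the adjusted p was 0.0188 (limma). Of 16 carbonic anhydrase genes measured, 0 were higher and 2 lower at an unadjusted p under 0.05, Car4 and Car8, of which Car8 was called present in none of the 5 lines, and the median was 0.06. Car2, a cytosolic enzyme, split the lines, at 6.46, 7.32 and 9.24 in wild-type lines, 7.18 in line 5 and 5.61 in line 3.1.

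Guanylate-binding proteins, large GTPases induced by interferon and used in defence against intracellular pathogens, formed a group of lower genes on chromosome 3. Gbp2 was at 6.51, 5.93 and 6.40 in wild-type lines, 4.70 in line 5 and 3.99 in line 3.1, a log2 fold change of −1.93 (standard error 0.28, 3.82-fold lower, adjusted p = 0.606 from limma). Its other probe set was at 5.63, 5.92 and 5.78 in wild-type lines, 3.91 in line 5 and 3.57 in line 3.1. Gbp2b, the neighbouring gene, was at 5.96, 6.56 and 6.11 in wild-type lines, 4.67 in line 5 and 4.96 in line 3.1. It was called present in neither heterozygous line and was estimated as 2.63-fold lower (log2 fold change −1.40, standard error 0.35). Gbp3 was at 4.66, 4.03 and 4.24 in wild-type lines, 3.54 in line 5 and 3.21 in line 3.1 (−0.94, standard error 0.23). In all 3 genes both heterozygous lines lay below all wild-type lines. Gbp6, Gbp7 and Gbp8 were called present in none of the 5 lines. These genes are close relatives in sequence, and probes of one may bind transcripts of another, above all on the Gbp2 probe set that represents the gene, whose name marks such probes. For all other genes of this comparison named here the adjusted p of limma was at least 0.997.

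The sequences upstream of the 3 lower genes are shown because these genes were low together and belong to one family. They are the 250 bases before the RefSeq start, in GRCm38.p6, all on the plus strand, at chr3:142620413-142620662 for Gbp2, chr3:142594597-142594846 for Gbp2b and chr3:142559794-142560043 for the first of 2 Gbp3 starts. Capitals mark the core of the interferon-stimulated response element, searched as GAAA, any 2 bases and GAAA, or on the other strand TTTC, any 2 bases and TTTC.
Gbp2: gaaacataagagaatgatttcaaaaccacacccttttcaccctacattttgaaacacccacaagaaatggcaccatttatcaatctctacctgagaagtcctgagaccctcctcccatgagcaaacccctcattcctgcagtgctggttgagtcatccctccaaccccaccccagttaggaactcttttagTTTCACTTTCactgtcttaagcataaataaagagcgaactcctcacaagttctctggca
Gbp2b: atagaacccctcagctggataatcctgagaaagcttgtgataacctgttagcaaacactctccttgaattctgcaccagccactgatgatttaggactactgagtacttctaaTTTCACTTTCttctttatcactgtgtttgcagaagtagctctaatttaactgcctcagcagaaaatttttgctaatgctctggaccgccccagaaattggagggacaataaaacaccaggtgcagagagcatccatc
Gbp3: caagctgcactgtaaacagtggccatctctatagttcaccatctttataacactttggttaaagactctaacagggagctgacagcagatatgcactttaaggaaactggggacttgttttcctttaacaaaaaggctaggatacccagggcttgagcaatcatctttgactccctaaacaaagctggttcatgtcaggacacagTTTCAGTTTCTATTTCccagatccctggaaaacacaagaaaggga
In Gbp3 the capitals hold 2 overlapping matches. The windows searched run from 250 bases before to 50 after a start. All 4 measured Gbp genes with a window, Gbp7 included, hold a match, and so do 3.99% of the 27025 genes with a window. The letters of the gamma-activated site, TTCNNNGAA with N for any base, occurred in the window of 1 of the 4, that of Gbp7, and of 9.55% of all genes.

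On a wider list of interferon-inducible genes, which leaves out Gbp2b, 27 genes were measured, with a median log2 fold change of −0.08. At an unadjusted p under 0.05, 0 were higher and 5 lower (1.67% and 2.18% of all genes). The lower ones were Gbp2, Gbp3, Tap1, Psmb8 and Stat2. Tap1, a subunit of the peptide transporter for antigen presentation, was at 5.60, 5.86 and 5.55 in wild-type lines, 4.96 in line 5 and 5.27 in line 3.1, and was called present in 2 wild-type and no heterozygous lines. Psmb8, an immunoproteasome subunit, and Stat2, a transducer of the interferon signal, were called present in none of the 5 lines. The median of the list was 0.04 in line 5 and −0.33 in line 3.1.

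Several other genes had both heterozygous lines far below the wild-type range. Amot, a scaffold of the Hippo pathway that holds YAP out of the nucleus, was at 5.98, 6.23 and 6.01 in wild-type lines, 4.28 in line 5 and 4.69 in line 3.1 (log2 fold change −1.59, standard error 0.28). It lies on the X chromosome, and its difference was −1.72 between line 5 and wild-type line 3.3, in which Eif2s3y was not called present, and −1.41 between line 3.1 and the mean of wild-type lines 3 and 3.2, in which it was. Pphln1, a subunit of the HUSH complex that silences repeats, was at 8.20, 8.61 and 7.81 in wild-type lines, 6.86 in line 5 and 6.73 in line 3.1 (−1.41, standard error 0.30). Adgrl2, an adhesion receptor of the latrophilin family that falls outside the rule for named genes and was singled out after its values were seen, was at 7.84, 8.41 and 8.08 in wild-type lines, 6.66 in line 5 and 7.07 in line 3.1. Flt1, a receptor for VEGF, was at 6.94, 6.86 and 7.26 in wild-type lines, 6.30 in line 5 and 5.85 in line 3.1. It was called present in all wild-type and no heterozygous line, and was estimated as 1.92-fold lower (log2 fold change −0.94, standard error 0.18). In all 4 genes the gap between the genotypes was wider than the range of the wild-type lines.

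In a further group of lower genes a wild-type line lay next to the heterozygous lines. Sfmbt2, an imprinted Polycomb group gene needed in the placenta, was at 9.24, 7.29 and 9.47 in wild-type lines, 7.03 in line 5 and 7.00 in line 3.1. Pim2, a serine/threonine kinase, was at 7.08, 6.20 and 8.15 in wild-type lines, 5.93 in line 5 and 5.57 in line 3.1. It is X-linked, and its difference was −2.22 between line 5 and wild-type line 3.3. Between line 3.1 and the mean of wild-type lines 3 and 3.2 it was −1.07. Podxl, the sialomucin podocalyxin, was at 6.93, 5.95 and 7.58 in wild-type lines, 5.32 in line 5 and 5.60 in line 3.1. In all 3 genes wild-type line 3.2 was the closest to the heterozygous lines. Krt8 and Krt18, the partner keratins of simple epithelia, were lowest in line 5, Krt8 at 9.74, 10.30 and 10.30 in wild-type lines, 8.05 in line 5 and 9.31 in line 3.1. Krt18 was at 8.03, 8.30 and 8.76 in wild-type lines, 6.16 in line 5 and 7.84 in line 3.1. Gm6958, a predicted gene, was at 7.89, 8.01 and 8.17 in wild-type lines and 7.84 in line 5, and 4.10 in line 3.1, so its log2 fold change of −2.05 came from line 3.1.

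**Figure D4:**
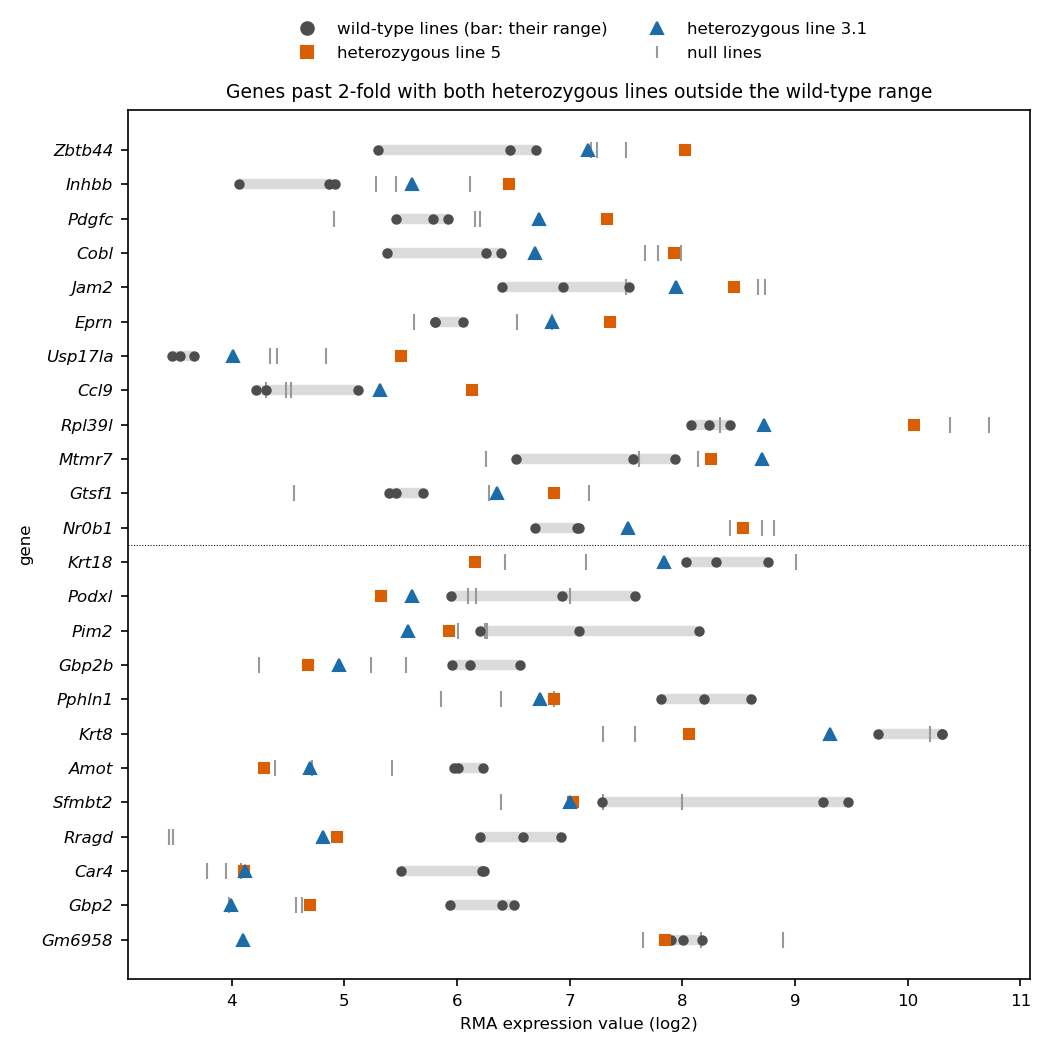
Log2 expression value (horizontal axis) in each ESC line of the 12 genes with the highest and the 12 with the lowest log2 fold change (vertical axis) among detected genes past 2-fold whose heterozygous lines lie outside the wild-type range. Grey bars span the 3 wild-type lines, squares are heterozygous line 5, triangles line 3.1 and ticks the 3 null lines. Both heterozygous lines are close together for Rragd, Car4 and Sfmbt2, and line 5 lies farther out than line 3.1 for all of the higher genes except Mtmr7.

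In 11 of the 12 highest genes line 5 lay farther from the wild-type mean than line 3.1. Zbtb44, a BTB domain zinc finger protein, was at 6.70, 6.47 and 5.30 in wild-type lines, 8.02 in line 5 and 7.16 in line 3.1 (log2 fold change 1.43, standard error 0.41), but another detected probe set of it went the other way (−0.74). Inhbb, the beta B subunit of activin and inhibin, was at 4.92, 4.86 and 4.06 in wild-type lines, 6.46 in line 5 and 5.60 in line 3.1 (1.42, standard error 0.36). Pdgfc, a ligand of the PDGF receptors, was at 5.46, 5.79 and 5.92 in wild-type lines, 7.33 in line 5 and 6.72 in line 3.1 (1.30, standard error 0.38). Ccl9, a chemokine, was at 4.21, 5.12 and 4.31 in wild-type lines, 6.13 in line 5 and 5.32 in line 3.1 (1.18, standard error 0.31). Of 23 activin and Nodal pathway genes measured, 2 were higher and 0 lower at an unadjusted p under 0.05, Inhbb and Gdf3, with a median of 0.06. Of 15 PDGF and VEGF genes, 1 was higher, Pdgfc, and 2 were lower, Flt1 and Flt4, with a median of −0.04. Of 18 chemokine ligands, 3 were higher and 1 lower, with a median of 0.02. Ccl6, another of the higher chemokines, was at 5.08, 5.19 and 4.77 in wild-type lines, 7.52 in line 5 and 5.20 in line 3.1.

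Nr0b1 led the pluripotency genes. It encodes Dax1, an orphan nuclear receptor that binds Oct4, and was at 7.08, 6.69 and 7.06 in wild-type lines, 8.54 in line 5 and 7.52 in line 3.1 (1.09, standard error 0.28). In null lines it was at 8.81, 8.71 and 8.42. Nr0b1 lies on the X chromosome. Its difference was 1.48 between line 5 and wild-type line 3.3, and 0.63 between line 3.1 and the mean of wild-type lines 3 and 3.2. Eprn, a noncoding RNA of ESCs, was at 5.80, 5.80 and 6.05 in wild-type lines, 7.36 in line 5 and 6.84 in line 3.1. Gtsf1, a small zinc finger protein of the piRNA pathway, was at 5.46, 5.40 and 5.69 in wild-type lines, 6.86 in line 5 and 6.36 in line 3.1, while null line 3.34 was at 4.55. Usp17la, a deubiquitinase, was at 3.67, 3.47 and 3.54 in wild-type lines, 5.50 in line 5 and 4.01 in line 3.1, and was called present in 1 wild-type and both heterozygous lines. Cobl, an actin nucleator, was at 6.25, 6.39 and 5.38 in wild-type lines, 7.93 in line 5 and 6.70 in line 3.1. Jam2, a junctional adhesion molecule, Rpl39l, a ribosomal protein, and Mtmr7, a phosphoinositide phosphatase, had log2 fold changes of 1.24, 1.15 and 1.14. Of 20 actin nucleation genes measured, 1 was higher and 1 lower at an unadjusted p under 0.05, Cobl and Spire1, with a median of −0.10. Of 6 genes of the 2-cell-like state 1, Usp17la, was higher and 0 were lower, with a median of 0.14. Among the 24 genes of both directions, 9 had a second detected probe set or more, and 11 of those 12 probe sets went in the same direction, all but that of Zbtb44.

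The promoter windows of these 24 genes were searched for CCCCTCCCC or its complement GGGGAGGGG, a GC-rich core taken here for Zfp281. A match was found for 1 of 10 higher genes with a window (Inhbb) and 1 of 11 lower genes (Sfmbt2), beside 9.51% of 14452 measured genes with a window. The match of Inhbb is shown because Inhbb is the only one of the higher genes with a match. It lies in the 250 bases before the RefSeq start at chr1:119422249-119422498 of GRCm38.p6, minus strand, and is in capitals.
Inhbb: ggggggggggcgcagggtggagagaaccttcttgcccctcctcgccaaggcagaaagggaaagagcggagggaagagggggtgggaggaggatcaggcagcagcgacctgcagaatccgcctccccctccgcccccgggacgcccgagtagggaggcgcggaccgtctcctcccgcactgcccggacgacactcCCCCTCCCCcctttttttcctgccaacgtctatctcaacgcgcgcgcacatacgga

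The median pluripotency gene was higher in line 5 and less so in line 3.1. All 28 genes of the list were measured and 24 detected, and 7 were higher and 0 lower at an unadjusted p under 0.05 (1.67% and 2.18% of all genes). Their median log2 fold change was 0.30, against 0.01 for all genes and −0.02 for all detected genes, with 0.49 in line 5 and 0.10 in line 3.1. Both heterozygous lines lay above all wild-type lines in 9 of the 28 genes and below them in 0 (8.44% and 8.83% of all genes). The summed level was 13.54, 13.76 and 14.01 in wild-type lines, 14.03 in line 5 and 13.87 in line 3.1, so that on this measure line 3.1 lay within the wild-type range and line 5 barely above it. Sox2 was at 9.93, 10.13 and 10.25 in wild-type lines, 10.66 in line 5 and 10.46 in line 3.1 (0.46, standard error 0.13). Esrrb, an orphan nuclear receptor of naive ESCs, was at 8.17, 8.54 and 8.24 in wild-type lines and 8.83 in both heterozygous lines. Nanog was at 8.49, 9.28 and 9.05 in wild-type lines, 9.56 in line 5 and 9.29 in line 3.1 (0.49, standard error 0.24), above the wild-type lines by a narrow margin in line 3.1. Null lines had 9.35, 9.26 and 9.73. Pou5f1, which encodes Oct4, was at 8.40, 7.81 and 8.92 in wild-type lines, 8.62 in line 5 and 7.94 in line 3.1, within the wild-type range. Zfp42, which encodes Rex1, was at 7.36 and 7.41 in lines 5 and 3.1 and between 6.29 and 8.71 in wild-type lines, and Fbxo15 was at 8.53 and 8.26 against 7.67 to 8.44. Tbx3, a T-box factor of naive ESCs, was at 4.16, 4.17 and 4.21 in wild-type lines, 6.00 in line 5 and 4.27 in line 3.1. In line 5 it was 1.82 above the wild-type mean, with the smallest adjusted p for that line, 0.0715 from limma. The probe set kept for Utf1 was called present in none of the 8 lines, while another of its probe sets was called present in 2 wild-type lines and both heterozygous lines.

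Protein partners of Zfp281 and Nanog overlapped with this group. Of 13 measured, 4 were higher and 0 lower at an unadjusted p under 0.05 (1.67% and 2.18% of all genes), namely Nr0b1, Sox2, Sall1 and Esrrb. Nr0b1, Sox2 and Esrrb are also in the pluripotency list, with the same values. Sall1, a zinc finger repressor, was at 7.31, 7.67 and 7.34 in wild-type lines, 8.02 in line 5 and 7.86 in line 3.1 (0.50, standard error 0.15). Of 15 NuRD and NODE subunits, the repressor complexes that partner with Nanog, 0 were higher and 1 was lower. This was Chd4, the remodelling ATPase of NuRD, at 8.45, 8.50 and 8.16 in wild-type lines, 8.05 in line 5 and 7.92 in line 3.1 (−0.38, standard error 0.14). Among 29 Polycomb genes 0 were higher and 1, Sfmbt2, lower, with a median of 0.06.

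The median endoderm gene was lower in both heterozygous lines, though line 5 stayed within the wild-type range on the summed level. Of 23 endoderm genes measured, 18 had a lower mean in heterozygous lines (8869 of all 18193 genes and 3605 of the 6724 detected genes). In the list, 9 genes were called present in none of the 5 lines. The median log2 fold change was −0.34, with −0.18 in line 5 and −0.48 in line 3.1. At an unadjusted p under 0.05, 0 were higher and 3 lower (1.67% and 2.18% of all genes). The lower ones were the laminin subunit Lamb1, the collagen IV chain Col4a2 and Fxyd3, of which Fxyd3 was called present in none of the 5 lines. Lamb1 was at 9.11, 8.52 and 8.83 in wild-type lines, 7.76 in line 5 and 8.07 in line 3.1 (−0.90, standard error 0.22). Col4a2 was at 8.14, 6.43 and 7.75 in wild-type lines, 6.47 in line 5 and 5.93 in line 3.1. The endoderm regulator Sox17 was at 5.14, 3.59 and 5.07 in wild-type lines, 4.32 in line 5 and 2.94 in line 3.1. Gata4 was at 5.58, 4.68 and 4.76 in wild-type lines, 4.49 in line 5 and 4.58 in line 3.1, and Gata6 at 5.10, 4.09 and 4.86, 4.46 and 4.03. For Col4a2, Sox17 and Gata6, wild-type line 3.2 was also the lowest of the wild-type lines, and line 5 lay within the wild-type range. The summed level of the endoderm list was 12.07, 10.98 and 11.78 (log2 of the summed linear values) in wild-type lines, 11.12 in line 5 and 10.50 in line 3.1. On this measure line 5 lay within the wild-type range and line 3.1 below it. In the list, 10 genes were called present in all wild-type lines and 6 in both heterozygous lines. In such mixed cultures fewer cells of a type and less RNA per cell cannot be told apart.

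Of 18 postimplantation epiblast genes measured, 0 were higher and 2 lower at an unadjusted p under 0.05, Pim2 and Fgf5. The median log2 fold change of the list was −0.08, with −0.03 in line 5 and −0.26 in line 3.1. In heterozygous lines 7 of the 18 had a higher mean and 11 a lower one (9324 and 8869 of all 18193 genes). Fgf5, the standard marker of primed epiblast, was at 3.38, 4.47 and 5.04 in wild-type lines, 3.29 in line 5 and 3.16 in line 3.1, and was called present in 1 wild-type and no heterozygous line. Wild-type line 3 lay close to the heterozygous lines. Otx2, a homeobox factor of the same state, was at 8.05, 6.97 and 8.75 in wild-type lines, 7.35 in line 5 and 6.30 in line 3.1. Of 21 trophectoderm genes, 1 was higher and 1 lower, Gata3 and Sfmbt2, and Gata3, Cdx2 and Elf5, regulators of this lineage, were called present in none of the 5 lines. The median log2 fold change of the 21 genes was −0.07, with −0.17 in line 5 and −0.07 in line 3.1. Their summed level was 11.52, 11.33 and 11.70 in wild-type lines, 10.40 in line 5 and 10.92 in line 3.1. Such a sum weighs the highest members most, among them Krt8, Krt18 and Sfmbt2, which were named above as low. It therefore does not describe the list as a whole. Of 15 mesoderm and 13 ectoderm genes none had an unadjusted p under 0.05, the medians were 0.04 and −0.02, and 1 gene of each list was called present in all wild-type lines. No probe set of Pax3 was called present in any line, nor was the one kept for Hnf4a, while another Hnf4a probe set was called present in 1 wild-type line. Of 21 imprinted genes 1 was higher, Snrpn, and 2 were lower, Sfmbt2 and Mirg, with a median of −0.36. Snrpn was called present in none of the 5 lines.

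Feeder fibroblast markers did not separate the genotypes. Of 23 measured, 0 were higher and 0 lower at an unadjusted p under 0.05, the median log2 fold change was 0.18 (0.27 in line 5 and 0.08 in line 3.1), and both heterozygous lines lay outside the wild-type range for 0 genes. Their summed level was 12.11, 12.67 and 11.91 in wild-type lines, 12.32 in line 5 and 12.38 in line 3.1. In line 5, 16 of the 23 lay above the wild-type mean (8611 of all 18193 genes). Col3a1, a fibrillar collagen, was at 6.61, 6.90 and 5.59 in wild-type lines, 8.00 in line 5 and 6.45 in line 3.1. Other members were lower in line 5, among them Thbs1, at 5.49, 6.65 and 5.55 in wild-type lines, 4.96 in line 5 and 6.08 in line 3.1. Of 25 cell cycle genes 0 were higher and 1 lower, the CDK inhibitor Cdkn1b (−0.64, standard error 0.27). Of 19 stress response genes 1 was higher, Chac1, and 0 lower, and of 16 germline genes none had an unadjusted p under 0.05.

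**Figure D5:**
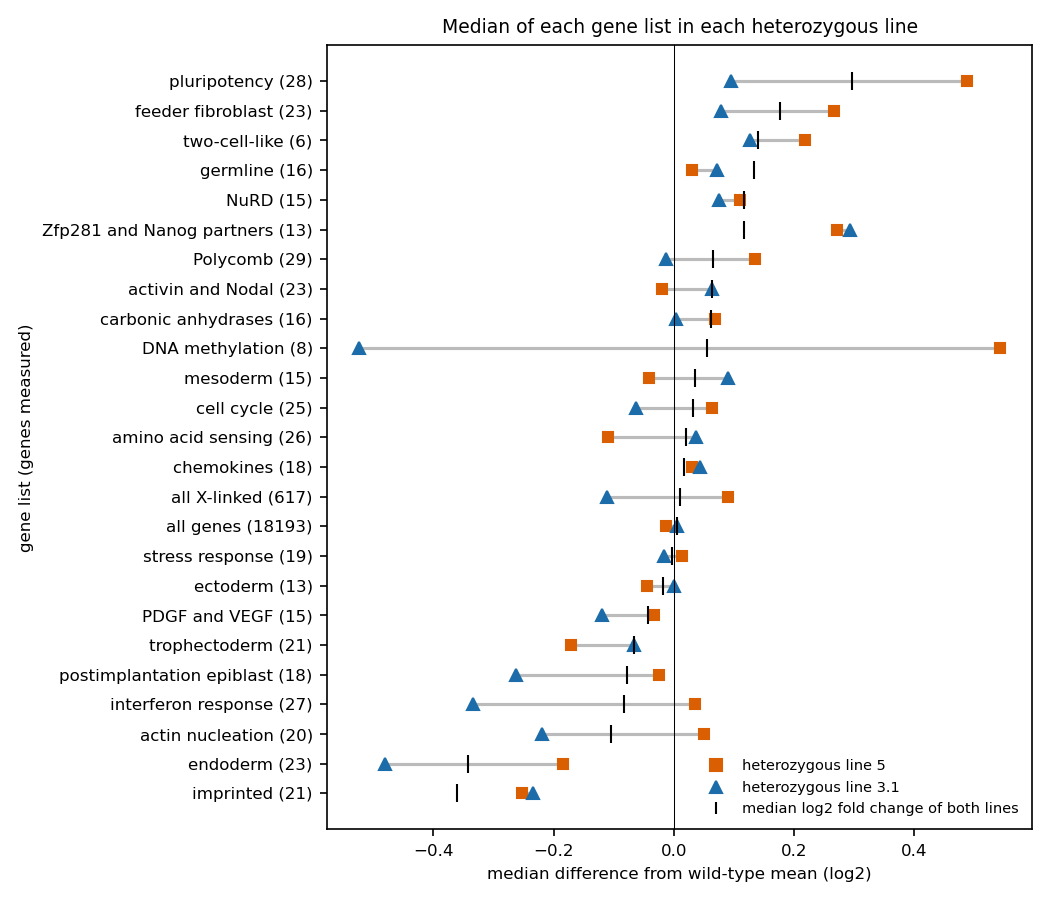
Median difference from the wild-type mean (horizontal axis, log2) over the measured genes of each list (vertical axis, number of genes in parentheses) in heterozygous line 5 (squares) and line 3.1 (triangles), with the median log2 fold change of both lines as a tick. The wild-type mean is shared by both lines. Pluripotency genes lie to the right (0.49 and 0.10), endoderm genes to the left (−0.18 and −0.48), and DNA methylation genes lie on opposite sides (0.54 and −0.52).

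The DNA methylation genes lay on different sides of the wild-type mean in the heterozygous lines. The median of the 8 measured was 0.54 in line 5 and −0.52 in line 3.1, with 6 above the wild-type mean in line 5 and 1 in line 3.1 (8611 and 9291 of all 18193 genes). Tet2, which oxidises 5-methylcytosine, was at 7.79, 6.14 and 7.28 in wild-type lines, 8.52 in line 5 and 5.78 in line 3.1, a difference of 2.74 between the heterozygous lines, each of which is 1 array. Tet1 was at 9.81, 8.27 and 9.65 in wild-type lines, 10.13 in line 5 and 8.54 in line 3.1. Dnmt3b, a de novo methyltransferase, was at 10.61, 9.07 and 10.49 in wild-type lines, 9.90 in line 5 and 8.78 in line 3.1, and Dnmt3a was at 6.72, 5.25 and 5.86, 6.43 and 4.93. Line 3.1 and wild-type line 3.2 were the lowest 2 of the 5 lines for all 4 genes.

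Some genes lay far from the wild-type mean in 1 heterozygous line while the other stayed within the wild-type range. In line 5 the lowest were Prom1, Ldhb, Chd7 and Pfdn5. Prom1, the membrane glycoprotein prominin, was at 6.78, 8.56 and 7.67 in wild-type lines, 4.80 in line 5 and 7.26 in line 3.1, and null lines were at 4.38, 5.17 and 4.68. Ldhb, a lactate dehydrogenase subunit, was at 9.96, 11.52 and 10.62 in wild-type lines, 8.50 in line 5 and 11.39 in line 3.1, with null lines at 8.67, 9.10 and 8.38. The highest in line 5 were Calcoco2, an autophagy receptor, at 7.63 against 4.13 to 5.53 in wild-type lines, Mcf2, at 6.01 against 3.12 to 3.76, and Mymx and Pla2g1b, 1.68 above the wild-type mean each. In line 3.1 the lowest were Car2, Snhg14, Gdap10 and Col4a1, with differences from the wild-type mean between −2.07 and −1.75. Snhg14, the host RNA of imprinted small nucleolar RNAs, was at 5.79, 5.73 and 6.49 in wild-type lines, 6.39 in line 5 and 4.25 in line 3.1. The highest above the wild-type mean were Sycp3, Ptgs2, Calml4 and Tigar, although for Calml4 and Tigar line 3.1 itself lay within the wild-type range, and Calml4 was also past 2-fold in line 5. Sycp3, a protein of the synaptonemal complex, was at 5.54, 7.34 and 5.07 in wild-type lines, 5.28 in line 5 and 7.49 in line 3.1. Ptgs2, an inducible cyclooxygenase, was at 5.38, 7.35 and 5.18, 5.94 and 7.45 in the same order, and Tigar at 5.28, 7.57 and 5.41, 5.84 and 7.48. For Sycp3, Ptgs2 and Tigar, line 3.1 had a value close to that of wild-type line 3.2 and away from the other 3 lines.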

How the data were processed

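Each of 8 ESC lines gave total RNA for 1 Affymetrix mouse genome array. Per the labels, the deposited series values are on the log2 scale, made by the authors with RMA, and RMA and limma are the tools in the submitters' processing notes, whose versions the sources used here do not give. For each array the authors also deposited the signal intensity of each probe set with its detection p-value and call, and the sources used here do not give the scaling. All 8 columns of log2 values matched their own array best.

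Of 45101 probe sets, 64 controls were left out, 34945 had 1 gene, 932 several and 9160 none listed in the platform annotation, which can be old. For each of 18193 genes the probe set of highest mean across the 8 arrays was kept. Genotype means were fitted to the 8 arrays by lmFit and eBayes of limma 3.58.1 (R 4.3.3), with Benjamini-Hochberg adjustment over all genes, and again with lines 5 and 3.1 as groups of their own, which assumes that a single line varies like the other groups. The 2-fold threshold is that of the study's methods, and an adjusted p under 0.05 was added here. The median standard error was 0.157 over all genes and 0.202 over detected genes. For genes called present in neither heterozygous line, the fold used, for each array, the higher of the lowest value called present and the gene's own value. For the folds printed for such genes the gene's own value was the higher, so each is an estimate and no minimum. Detection calls are those of the probe set kept. The fits were tested on simulated data.

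Genes are named by 5 rules. They are Zfp281 and genes the study names, the 12 highest and 12 lowest log2 fold changes among detected genes past 2-fold without overlap, from each list at most 2 members, those of smallest unadjusted p under 0.05, the 4 highest and 4 lowest detected genes of each heterozygous line whose other line lies within the wild-type range, and Xist with Y-linked genes. Other list members named with a value were chosen after their values were seen. The members and lists were chosen with earlier results of these data known. Promoter sequences are from RefSeq (GRCm38.p6). Tables were handled in pandas 2.3.3 and numpy 2.4.6 (Python 3.11.15), exact tests run in scipy 1.17.1 and plots drawn in matplotlib 3.10.9.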

Additional observations from a re-analysis of the deposited data

Results flagged for a closer look

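The second Gbp2 probe set, which is not used where each gene has 1 value, was lower in heterozygous lines, with a log2 fold change of −2.04, a standard error of 0.14 and an adjusted p of 0.0133 from limma over 45037 probe sets, the only one under 0.05. It was not called present in either heterozygous line.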

How the results depend on the processing

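The 24 genes with the highest and lowest log2 fold changes kept their sign under all 17 alternatives run for them. They were picked with both heterozygous lines beyond all wild-type lines, so the alternatives that only leave out lines or genes could not change it. Of the 44 named genes not past 2-fold, 20 had the other sign under at least 1. With the mean of a gene's probe sets, 32 genes were past 2-fold (132 in line 5, 55 in line 3.1, 7 in both), and with the signal values 3235 (4320, 4748 and 1472), split into 1618 higher and 1617 lower (23 and 38 in the values of the report). Leaving out a null line gave 61 genes past 2-fold and 21 in both lines, as with all 8 arrays. Leaving out any 1 line gave 58 to 234 genes past 2-fold (115 without wild-type line 3.2, 143 without heterozygous line 5, 234 without heterozygous line 3.1), 234 to 296 in line 5, 99 to 315 in line 3.1 (315 without wild-type line 3.2) and 16 to 41 in both (34 when wild-type line 3 was left out, 41 for line 3.2). The split was 30 higher and 28 lower without wild-type line 3.3. Genes passing the adjusted p numbered 0 to 2, which were Car4 and Rragd without wild-type line 3, and 0 to 0 between lines 5 and 3.1 (limma). With heterozygous line 3.1 and wild-type line 3.2 both left out, 248 genes were past 2-fold, 130 higher and 118 lower. Without line 5, Mcf2 was at −0.27 and Calcoco2 at −0.63 (ranges −0.27 to 2.58 and −0.63 to 2.75), since line 5 alone was high, and at 1.32 and 1.39 without wild-type line 3. Over all probe sets, an alternative chosen after seeing the data, 100 were past 2-fold and 1 passed the adjusted p. Other causes were not tested. With 1 array a line, the 5 arrays alone gave a smallest adjusted p of 0.998 (limma). No paired analysis was possible because the labels give each line its own number and the sources used here give no litter of a heterozygous line. The study places null line 7 with wild-type line 3, and null line 3.38 with wild-type line 3.3, in the same litters. With litter as a random block, also chosen after seeing the data, 23 genes were higher and 41 lower past 2-fold (smallest adjusted p = 0.222 from limma, correlation 0.0944).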
